A study of Mus musculus with 24 samples.

Results

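The proteasome subunit genes were followed across 24 RNA-seq libraries of mouse bone marrow–derived macrophages (BMDM), primary cells differentiated from marrow precursors in M-CSF. A gene was taken when its symbol starts with *Psma*, *Psmb*, *Psmc* or *Psmd* followed by a digit, it is protein-coding and it had at least 240 reads summed over the 24 libraries. The inducible subunits *Psmb8*, *Psmb9* and *Psmb10* were left out by this rule. Of 56884 genes in the count table, 45 had such a symbol and 36 were members. Besides the 3 inducible genes, 5 pseudogenes and *Psmb11*, a subunit of thymus epithelium with 0 reads in all libraries, fell away. The members closest to the minimum were *Psmc3ip*, with 541 reads in all, and *Psma8*, with 767.

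The BMDM came from 4 wild-type mice on the C57BL/6J background, females of 9 weeks, numbered 1, 2, 4 and 5, and every mouse gave 1 library to each of 6 groups. Naive cells received no cytokine. M2 cells received IL-4 and IL-13, each at 20 ng/ml, for 24 h, and the other 4 groups received the same cytokines plus an inhibitor that was also present during a pretreatment of 1 h. Tunicamycin (5 µg/ml) blocks N-linked glycosylation in the endoplasmic reticulum (ER), and Sal003 (10 µM) blocks the dephosphorylation of the translation factor eIF2α. The other groups, Oligo and Oli_ISR, received oligomycin (1 µM), an inhibitor of the mitochondrial ATP synthase. One of these groups also received ISRIB (1 µM), a compound that counteracts the effects of phosphorylated eIF2α. The sample titles assign ISRIB to the Oligo libraries and the library names assign it to the Oli_ISR libraries, so both are called by library name here and neither reading was chosen.

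The 26S proteasome degrades proteins that carry ubiquitin chains. Its 20S core is a barrel of 4 stacked rings, in which the alpha subunits (*Psma* genes) form the gated outer rings and the beta subunits (*Psmb* genes) form the inner rings. *Psmb5*, *Psmb6* and *Psmb7* encode the chymotrypsin-like, caspase-like and trypsin-like active sites. The 19S particle caps the core. Its base holds the ATPases (*Psmc* genes), which unfold substrates, and *Psmd1*, *Psmd2* and *Psmd4*, and its lid holds further *Psmd* subunits, among them the deubiquitinase encoded by *Psmd14*. The subunits are known to be transcribed together, partly under the transcription factor NRF1 (encoded by *Nfe2l1*), a glycoprotein of the ER membrane that is retrotranslocated and cleaved before it reaches the nucleus. By role, the members were 8 alpha ring genes, 3 catalytic and 4 other beta ring genes, 6 ATPases, 3 other base genes and 8 lid genes, 32 subunits in all. The remaining members were *Psmd5*, *Psmd9* and *Psmd10*, chaperones that assemble the base, and *Psmc3ip*, a meiotic recombination factor that fits the symbol rule without being a subunit.

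Promoter sequences show what the regulatory regions of the members with the most different responses look like. RefSeq promoters (GRCm38.p6, 250 bases before to 50 bases after the start) were matched by symbol for 29 of the 36 members. The core of the antioxidant response element, TGACNNNGC on either strand, which NRF1 and related factors recognize, was present in the promoters of 5 of these 29 genes (17.2%) and of 14.0% of the 27025 genes with a promoter. These were *Psmb5*, *Psmb6*, *Psmc6*, *Psmd9* and *Psmd12*. The element bound by dimers of C/EBP and ATF proteins, TGATGNAAT, was found in 0 of 29 and in 1.08% of all genes. The box CCAAT was found in 12 of 29 (41.4%) and in 41.1% of all genes. The promoters of *Psmb5* (chr14:54617946-54618245, minus strand), *Psmb6* (chr11:70525107-70525406, plus strand) and *Psmc6* (chr14:45329574-45329873, plus strand) are shown as those with the first motif, in capitals, among genes that were higher with oligomycin. The promoters of *Psmd8* (chr7:29180624-29180923, minus strand) and *Psma4* (chr9:54950609-54950908, plus strand) are shown as examples of a rise and a fall without the motif in the window. The motif did not go with a rise in each case: *Psmd12* carries it and fell in Oligo, and *Psmd9* carries it and was not called there.
Psmb5: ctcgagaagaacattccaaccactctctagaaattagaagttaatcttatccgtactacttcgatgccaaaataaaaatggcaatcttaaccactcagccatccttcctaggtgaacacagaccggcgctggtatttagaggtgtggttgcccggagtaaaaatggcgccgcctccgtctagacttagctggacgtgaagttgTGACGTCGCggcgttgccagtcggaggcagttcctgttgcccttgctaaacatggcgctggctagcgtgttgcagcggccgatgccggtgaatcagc
Psmb6: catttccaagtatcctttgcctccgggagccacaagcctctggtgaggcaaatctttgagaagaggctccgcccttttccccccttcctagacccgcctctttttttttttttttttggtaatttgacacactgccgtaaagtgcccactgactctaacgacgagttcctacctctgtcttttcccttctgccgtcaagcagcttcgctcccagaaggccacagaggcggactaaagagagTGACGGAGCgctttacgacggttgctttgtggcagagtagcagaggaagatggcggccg
Psmc6: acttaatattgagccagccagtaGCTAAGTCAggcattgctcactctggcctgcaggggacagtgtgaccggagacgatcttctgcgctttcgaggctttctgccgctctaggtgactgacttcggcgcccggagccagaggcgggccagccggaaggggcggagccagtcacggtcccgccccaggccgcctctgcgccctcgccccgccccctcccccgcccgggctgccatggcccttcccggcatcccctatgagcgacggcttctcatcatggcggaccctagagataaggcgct
Psmd8: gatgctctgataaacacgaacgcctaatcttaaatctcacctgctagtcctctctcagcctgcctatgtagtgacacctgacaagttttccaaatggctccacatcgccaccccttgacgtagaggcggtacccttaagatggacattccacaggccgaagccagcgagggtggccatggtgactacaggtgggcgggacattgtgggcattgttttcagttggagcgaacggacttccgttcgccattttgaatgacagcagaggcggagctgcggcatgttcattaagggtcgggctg
Psma4: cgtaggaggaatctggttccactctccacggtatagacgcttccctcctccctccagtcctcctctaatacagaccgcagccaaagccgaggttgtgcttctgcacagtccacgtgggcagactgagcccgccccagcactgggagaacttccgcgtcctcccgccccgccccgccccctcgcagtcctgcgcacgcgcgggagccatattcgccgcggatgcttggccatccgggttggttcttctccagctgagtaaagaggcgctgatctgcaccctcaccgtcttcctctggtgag
The matches lie at positions -47 to -39 from the start in *Psmb5* and -9 to -1 in *Psmb6*. In *Psmc6* the match is on the opposite strand, at -227 to -219. A match is a description of these letters and not a binding site.

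Between 16238727 and 26725278 reads per library fell on genes (median 18999998), so the 31 subunits other than *Psma8* rested on at least 15739 reads each over the series. All 36 members were among the 13679 genes tested. All 7 macrophage markers checked (*Adgre1*, *Csf1r*, *Cd68*, *Itgam*, *Lyz2*, *Mertk* and *Fcgr1*) were detected in each group. Their summed level was 30582 to 36302 CPM (counts scaled to library size) in naive libraries, 11370 to 13771 in M2, 16073 to 17650 with tunicamycin, 13797 to 15519 with Sal003, 8721 to 9537 in Oligo and 13405 to 15299 in Oli_ISR. Markers of T cells, erythroid cells and B cells summed to at most 0.0569, 0.163 and 1.23 CPM in any library, and dendritic cell markers to 0.794 to 6.37 CPM. Neutrophil markers summed to 31.4 to 61.2 CPM in naive libraries and 0.0513 to 0.286 with tunicamycin, and fibroblast markers to 9.89 to 74.1 and 1.27 to 9.45. Proliferation markers summed to 60.4 to 65.7 CPM in naive libraries, 169 to 241 CPM in M2 and between 27.2 and 39.3 in every inhibitor group. The part of these shifts in the results was not tested, and in bulk RNA fewer cells of a type cannot be told apart from less RNA per cell. *Atf4*, the transcription factor of the integrated stress response, changed by a log2 fold change against M2 of 3.01 (SE 0.08) with tunicamycin, 0.61 (SE 0.07) with Sal003, 2.38 (SE 0.08) in Oligo and 1.82 (SE 0.07) in Oli_ISR.

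Taken over the 36 members, the mean level was lowest in naive and highest in tunicamycin-treated cells, although the distance between groups was small. The mean log2 CPM of the members was 5.76, 6.12, 5.77 and 5.74 in naive libraries of mice 1, 2, 4 and 5. It was 6.11, 6.08, 6.08 and 6.05 in M2 and 6.25, 6.27, 6.25 and 6.25 with tunicamycin. All 4 tunicamycin libraries were thus above all M2 libraries, and 3 of the 4 naive libraries were below them, while the naive library of mouse 2 lay above every M2 library. Sal003 gave 6.21, 6.22, 6.14 and 6.26, Oligo 6.20, 6.19, 6.26 and 6.20, and Oli_ISR 6.19, 6.13, 6.11 and 6.16. Within mice, the distance to M2 was 0.17 ± 0.03 with tunicamycin, 0.12 ± 0.06 with Sal003, 0.13 ± 0.04 in Oligo and 0.07 ± 0.04 in Oli_ISR (mean ± SD, n = 4), and it was positive in 4 of 4 mice in each. For Oli_ISR the sign depended on the scaling, with 2 of 4 mice positive under upper-quartile scaling (mean 0.02) and 3 of 4 under RLE scaling or the length correction. For Sal003 it was positive in 3 of 4 under the length correction. These 4 differences share the M2 libraries. Between tunicamycin and Oligo the distance was 0.05 ± 0.04, positive in 3 of 4 mice, and its mean was 0.0032 under upper-quartile scaling. Tunicamycin held the highest group mean for 17 of the 36 members, Sal003 for 11, and M2 and Oligo for 4 each. Naive cells held the lowest for 30. These counts were not taken over all genes, so they cannot be set against a background share.

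**Figure D1:**
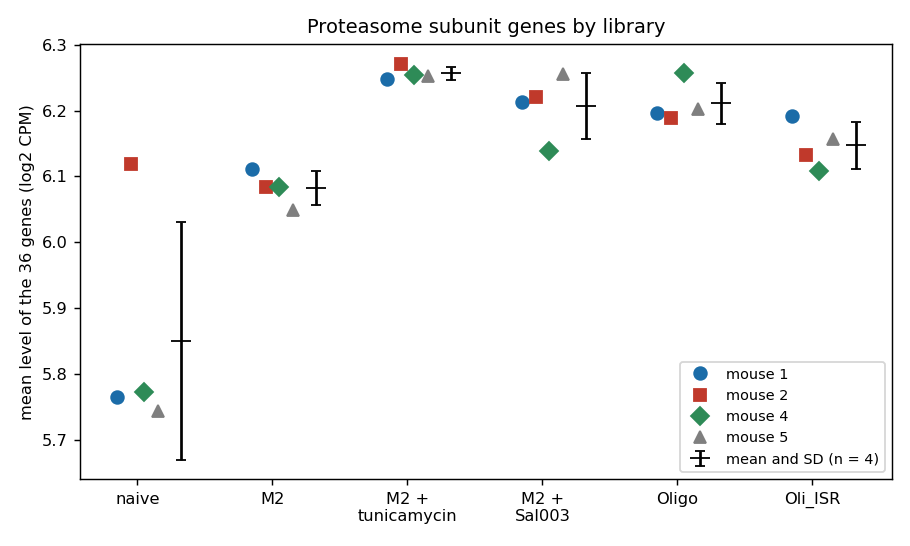
Mean log2 CPM over the 36 members (vertical axis) in each library, by group (horizontal axis); symbols mark the 4 mice, and black bars show the group mean and SD (n = 4). The naive library of mouse 2, at 6.12, stands above the other naive libraries at 5.74 to 5.77, and all inhibitor libraries lie at or above 6.11.

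Compared per length, the transcripts of the subunits did not stand at 1 common level. In M2 cells, the 31 subunits other than *Psma8* spanned 9.80 to 139 CPM per kilobase of the annotated canonical transcript, with a median of 50.1. *Psmd8*, a small lid subunit, was highest at 139 ± 2.31 (SD, n = 4), followed by the alpha subunit *Psma7* at 127 ± 2.76 and the catalytic *Psmb6* at 114 ± 1.19. *Psma3*, another alpha subunit, was lowest at 9.80 ± 0.311. Its canonical transcript is 3593 bases long, and 16.2% of its 100-base stretches also occur in transcripts of another gene, so its level is uncertain. These values depend on the transcript chosen for each gene. *Psma8*, the alpha subunit of the testis proteasome, was nearly silent at 0.791 ± 0.157.

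The response to IL-4 and IL-13 was a shallow rise shared by most members. In M2 against naive cells, 24 of 36 members rose and 0 fell, where 30.1% of all genes tested rose and 30.4% fell (edgeR quasi-likelihood test, Benjamini-Hochberg adjusted *P* under 0.05). The median log2 fold change was 0.19 over the members and -0.02 over all genes. Only 3 of the 36 rose at least 1.5-fold, where 13.4% of all genes did. These were 2 of the 32 subunits and *Psmc3ip*, which is not a subunit and had the largest rise of all members (0.84). By role, 7 of 8 lid genes, 5 of 8 alpha genes, 4 of 6 ATPases, 4 of 7 beta genes and 2 of 3 other base genes rose. The largest rises of subunits were those of the alpha subunit *Psma4* and of the deubiquitinase *Psmd14*. *Psma4* was at 82.2, 96.0, 75.2 and 76.2 CPM in naive cells of mice 1, 2, 4 and 5 and at 131, 131, 130 and 130 CPM in M2 cells. All M2 libraries were far above all naive libraries, and the log2 fold change was 0.66 (SE 0.06, adjusted *P* = 2.73e-10). *Psmd14* went from 49.4, 58.2, 48.9 and 48.6 CPM to 79.1, 78.4, 79.9 and 77.4 CPM, again without overlap (0.62, SE 0.05, adjusted *P* = 1.5e-10). *Psma8* (0.53, SE 0.21, from 0.947 CPM in naive cells), *Psmb6* (0.49, SE 0.08), *Psma3* (0.40, SE 0.06) and *Psmb5* (0.38, SE 0.11) followed, whereas *Psmc6* (0.12, SE 0.04) and *Psma1* (0.12, SE 0.04) were among the smallest rises called. Members that were not called included *Psmb7* (0.10, SE 0.07), *Psmc1* (-0.05, SE 0.07), *Psma6* (-0.06, SE 0.06) and *Psmd4* (-0.10, SE 0.08).

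The naive library of mouse 2 stood apart from the other naive libraries, and the size of this comparison depends on it. It held 34 of the 36 members at a higher level than each of the 3 other naive libraries, a share not counted over all genes. Its median log2 excess over the members was 0.38 (range -0.23 to 0.79). Its *Psmb5* level was 46.3 CPM against 27.3 to 29.2 CPM in the others, and its *Psmb7* level was 80.3 against 58.5 to 60.1 CPM. Its departure was not limited to proteasome genes. Over all genes, its deviation from the mean of the other naive libraries fell with transcript length (Spearman's rho -0.52, across genes of 1 library). The same measure was 0.18, 0.43 and 0.30 in the naive libraries of mice 1, 4 and 5. Each of these was taken against a mean that includes the library of mouse 2. In the libraries of the other groups it was -0.21 to 0.20. The part of transcript length in the excess of the members was not tested. The canonical transcripts of the members are short, with a median of 1709 bases against 3140 for all genes tested. Without this library, 32 of 36 members rose (0 fell), 6 of them at least 1.5-fold, with a median log2 fold change of 0.29. With a correction of each library for transcript length, 28 rose, the median was 0.22, and the mean level of the members in this library was 6.00 against 5.76 to 5.82 in the other naive libraries. Within mice, the mean level rose by 0.35, 0.31 and 0.31 in mice 1, 4 and 5 and differed by -0.04 in mouse 2. Leaving out mouse 1 from all groups, which keeps the library of mouse 2, left 14 members called, and a fit of the naive and M2 groups alone also called 14.

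**Figure D2:**
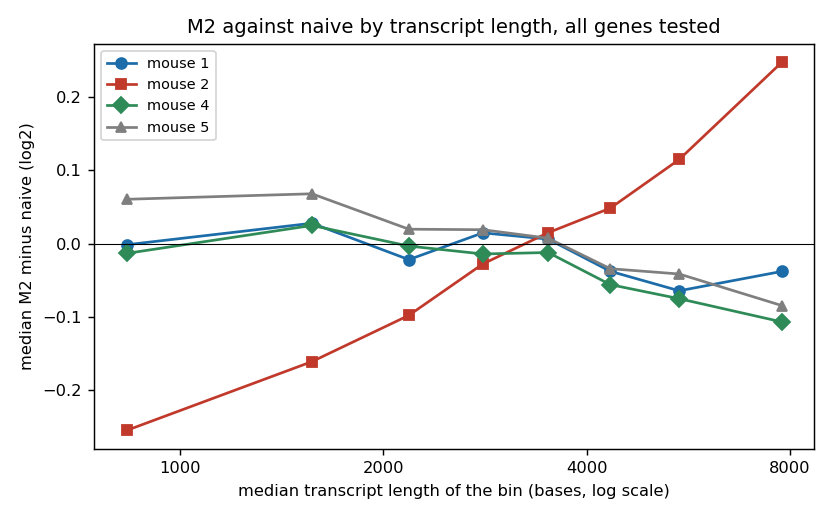
Median difference between M2 and naive cells (log2, vertical axis) of all genes tested in 8 bins of transcript length (horizontal axis, log scale), 1 line per mouse. In mouse 2 the median rises from -0.25 in the bin of the shortest transcripts to 0.25 in that of the longest, while in mouse 4 it goes from -0.01 to -0.11.

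With each inhibitor, the members stayed close to their M2 level, and their median log2 fold change was above 0 and smallest in Oli_ISR. With tunicamycin, 18 members rose and 3 fell, where 38.7% of all genes rose and 37.6% fell, and the median log2 fold change was 0.14 against 0.01 for all genes. The members were also held in a narrower range, with an interquartile range of 0.41 against 1.18 for all genes. With Sal003, 17 rose and 1 fell (25.9% and 24.6% of all genes), with a median of 0.14 against 0.00. In Oligo, 17 rose and 4 fell (34.0% and 32.2%), with a median of 0.12 against 0.01, and in Oli_ISR 9 rose and 2 fell (27.9% and 26.4%), with a median of 0.07 against 0.00. The share of members that rose in Oli_ISR was thus close to that of all genes. Rises of at least 1.5-fold were limited to 3 members with tunicamycin (22.2% of all genes), 1 with Sal003 (7.95%), 4 in Oligo (15.4%) and 1 in Oli_ISR (9.55%). In each of the 4 comparisons 1 member, *Psmc3ip*, fell at least 1.5-fold (25.1%, 12.0%, 18.2% and 12.3% of all genes). The count of rises with Sal003 was 9 without mouse 1 or without mouse 5 and 11 with upper-quartile scaling. In Oli_ISR, 5 rose without mouse 1 or mouse 5, while 1 fell without mouse 1, 4 fell without mouse 2 and 6 fell without the naive library of mouse 2. In Oligo, 2 fell without mouse 1.

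**Figure D3:**
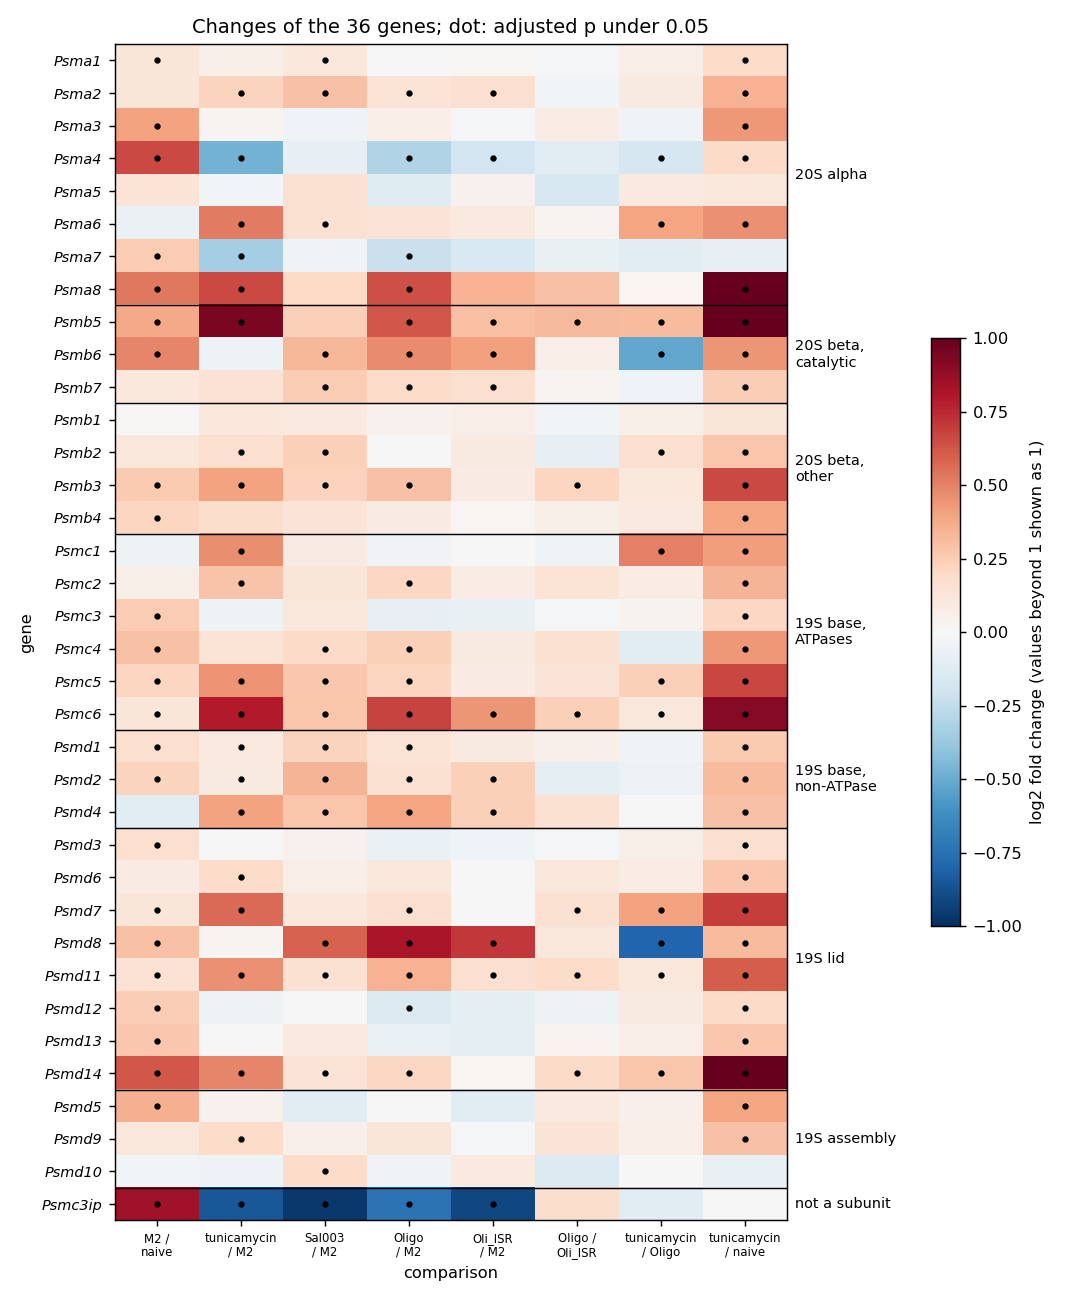
Log2 fold change (colour, values beyond 1 shown as 1) of the 36 members (vertical axis, by role) in the 8 comparisons (horizontal axis), each based on 4 libraries per group. Black dots mark an adjusted *P* under 0.05; *Psmb5*, *Psmc6* and *Psmd8* hold the strongest rises of subunits with inhibitors, and *Psma4* the strongest fall.

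The catalytic subunits responded in different ways. *Psmb5* (chromosome 14, 54850776 to 54855481, minus strand, GRCm39) was at 44.6, 41.1, 42.8 and 41.5 CPM in M2 cells of mice 1, 2, 4 and 5. It was at 80.9, 82.5, 79.4 and 83.3 CPM with tunicamycin and at 64.6, 63.1, 71.1 and 63.3 CPM in Oligo. These 3 groups did not overlap, and tunicamycin gave the largest change of any subunit against M2, 0.94 (SE 0.10, adjusted *P* = 6.89e-09), ahead of 0.62 in Oligo (SE 0.10, adjusted *P* = 7.34e-06). It also rose in Oli_ISR (0.30, SE 0.10, adjusted *P* = 0.0152), but not past the threshold with Sal003 (0.23, SE 0.10, adjusted *P* = 0.061). Of its 100-base stretches, 27.3% also occur in transcripts of other genes, so its counts are uncertain to that extent.

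*Psmb6* (chromosome 11, 70416183 to 70418684, plus strand) showed another order. It was at 120, 118, 117 and 118 CPM in M2, at 117, 113, 113 and 115 CPM with tunicamycin, and at 167, 161, 176 and 155 CPM in Oligo. The M2 and tunicamycin libraries overlapped (-0.05, SE 0.08, adjusted *P* = 0.587), while all Oligo libraries were above both (0.48 against M2, SE 0.08, adjusted *P* = 5.6e-06). It rose to a similar extent in Oli_ISR (0.41, SE 0.08) and with Sal003 (0.33, SE 0.08). *Psmb7* differed from M2 by 0.14 with tunicamycin (SE 0.07, adjusted *P* = 0.055, or 0.0393 with a block for mouse), 0.25 with Sal003 (SE 0.07, adjusted *P* = 0.0031), 0.18 in Oligo (SE 0.07, adjusted *P* = 0.019) and 0.16 in Oli_ISR (SE 0.07, adjusted *P* = 0.0488). A share of 46.8% of its exon bases lies opposite exons of *Nek6*, and whether reads were counted by strand is not given in the sources used here. Among the 4 structural beta genes, *Psmb3* rose with tunicamycin (0.40, SE 0.08), in Oligo (0.30, SE 0.08) and with Sal003 (0.23, SE 0.08), and *Psmb1* was called in none of the 4 comparisons with M2, with values from 0.05 to 0.11.

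The alpha ring held subunits that fell and subunits that rose. *Psma4* (chromosome 9, 54858066 to 54866448, plus strand), the gene with the largest subunit rise in M2, was at 93.0, 92.9, 95.0 and 95.8 CPM with tunicamycin, below the 130 to 131 CPM of M2 cells in all 4 mice. Its log2 fold change was -0.47 (SE 0.06, adjusted *P* = 5.51e-08). It was at 110, 106, 104 and 103 CPM in Oligo and at 110, 123, 109 and 115 CPM in Oli_ISR, in both cases below all M2 libraries (-0.30, SE 0.06, adjusted *P* = 5.14e-05, and -0.19, SE 0.06, adjusted *P* = 0.00581). With Sal003 the difference was -0.08 (SE 0.06, adjusted *P* = 0.236). *Psma7* fell with tunicamycin (-0.34, SE 0.08, adjusted *P* = 0.000293) and in Oligo (-0.23, SE 0.08, adjusted *P* = 0.0108). *Psma6*, of the same ring, was at 93.6, 95.9, 94.0 and 95.4 CPM in M2 and at 134, 139, 139 and 132 CPM with tunicamycin (0.52, SE 0.06, adjusted *P* = 2.74e-08). In all, 3 of 8 alpha genes rose and 2 fell with tunicamycin (38.7% and 37.6% of all genes), and 2 rose and 2 fell in Oligo (34.0% and 32.2%), which is near or below the shares of all genes. *Psma8* rose with tunicamycin (0.66, SE 0.19) and in Oligo (0.64, SE 0.19), from a level of 1.36 ± 0.270 CPM in M2 to 2.16 ± 0.208 and 2.13 ± 0.262.

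Among the ATPases of the 19S base, *Psmc6* (chromosome 14, 45567215 to 45587169, plus strand) changed most. It was at 82.5, 76.3, 81.8 and 76.1 CPM in M2, at 137, 140, 132 and 139 CPM with tunicamycin and at 126, 127, 131 and 123 CPM in Oligo. It was at 105, 108, 109 and 108 CPM in Oli_ISR and at 98.3, 97.1, 88.0 and 100.5 CPM with Sal003. All inhibitor libraries were above all M2 libraries, and the log2 fold changes were 0.79, 0.68, 0.44 and 0.28 (SE 0.04 each, adjusted *P* = 2.04e-14, 1.03e-12, 7e-09 and 1.09e-05). *Psmc1* rose with tunicamycin (0.47, SE 0.07, adjusted *P* = 9.06e-07) and stayed within 0.09 of M2 with the other inhibitors. *Psmc5* rose with tunicamycin (0.45, SE 0.07), Sal003 (0.27, SE 0.07) and in Oligo (0.21, SE 0.07), with 39.5% of its exon bases opposite *Smarcd2*. *Psmc3* passed the test in none of the 4. Of the 6 ATPases, 4 rose with tunicamycin (38.7% of all genes), 3 with Sal003 (25.9%), 4 in Oligo (34.0%) and 1 in Oli_ISR (27.9%).

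The other base subunits, which hold the scaffold and a ubiquitin receptor, rose in small steps. All 3 rose past the test with tunicamycin (38.7% of all genes), with Sal003 (25.9%) and in Oligo (34.0%), and 2 of 3 in Oli_ISR (27.9%). The scaffold *Psmd2* was highest with Sal003 (367 ± 10.2 CPM against 290 ± 9.81 in M2, SD, n = 4), with a log2 fold change of 0.34 (SE 0.04, adjusted *P* = 1.21e-07) against 0.09 with tunicamycin (SE 0.04, adjusted *P* = 0.0469). The ubiquitin receptor *Psmd4* rose by 0.40 with tunicamycin and by 0.39 in Oligo (SE 0.08 each). For *Psmd4*, 20.0% of exon bases lie opposite other genes.

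In the lid, *Psmd8* (chromosome 7, 28873612 to 28880135, minus strand) separated tunicamycin from the other inhibitors. It was at 213, 214, 212 and 220 CPM in M2 and at 231, 208, 221 and 215 CPM with tunicamycin, and these groups overlapped (0.03, SE 0.05, adjusted *P* = 0.681). It was at 324, 321, 309 and 341 CPM with Sal003, at 389, 364, 385 and 378 CPM in Oligo and at 362, 343, 334 and 361 CPM in Oli_ISR. All 12 of these libraries exceeded all M2 and tunicamycin libraries. The log2 fold changes against M2 were 0.59, 0.82 and 0.70 (SE 0.05 each, adjusted *P* = 1.21e-09, 1.14e-12 and 4.5e-11). *Psmd7* and *Psmd14*, which form the dimer that carries the deubiquitinase, were instead highest with tunicamycin. *Psmd7* was at 81.1, 79.7, 80.5 and 79.8 CPM in M2, at 116, 124, 117 and 118 CPM with tunicamycin and at 89.1, 87.4, 93.2 and 88.9 CPM in Oligo (0.56, SE 0.05, adjusted *P* = 3.55e-10, and 0.16, SE 0.05, adjusted *P* = 0.00917). *Psmd14* rose by 0.49 with tunicamycin (SE 0.05), 0.21 in Oligo (SE 0.05) and 0.14 with Sal003 (SE 0.05). *Psmd11* rose in all 4 comparisons with M2, by 0.46, 0.15, 0.34 and 0.16 (tunicamycin, Sal003, Oligo and Oli_ISR, SE 0.04 each). *Psmd12* fell in Oligo (-0.14, SE 0.04, adjusted *P* = 0.00515), and *Psmd3* was called in none of the 4.

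**Figure D4:**
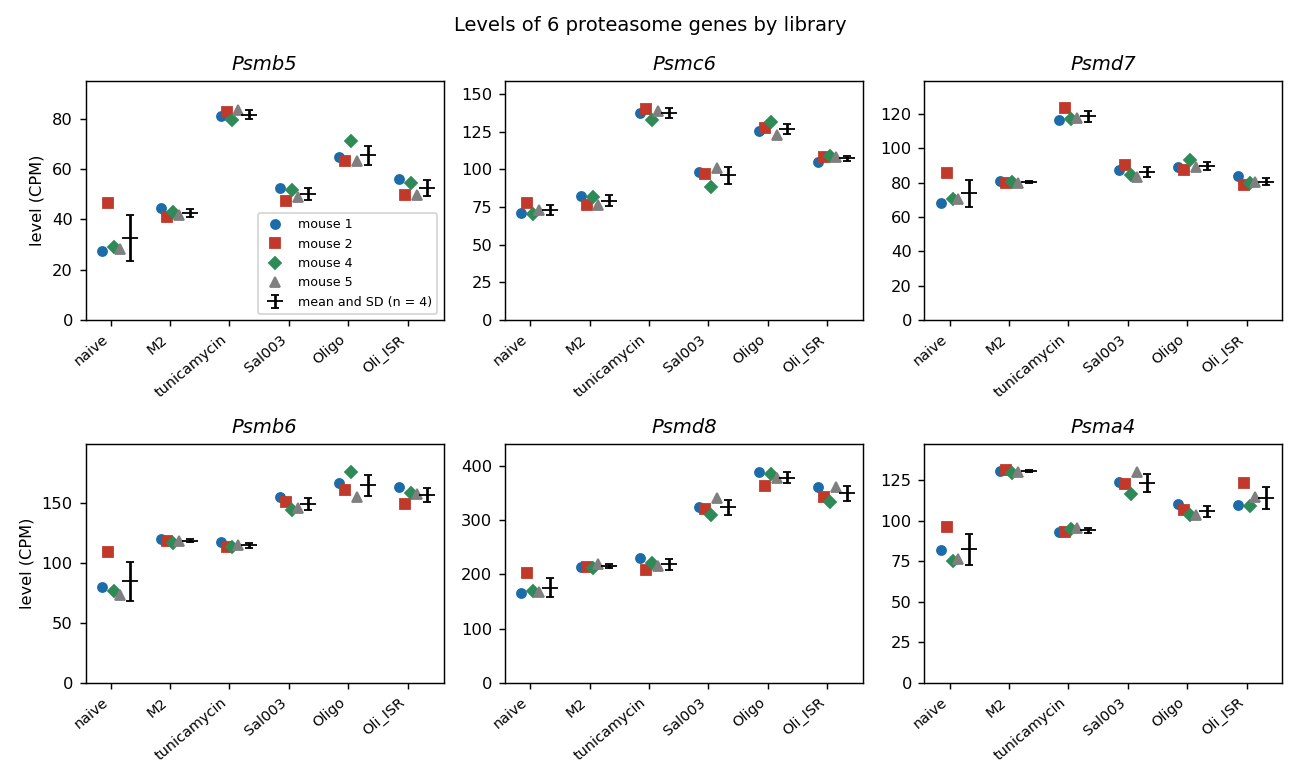
Level in CPM (vertical axis, from 0) of 6 members in each library, by group (horizontal axis); symbols mark the mice, and black bars the group mean and SD (n = 4). *Psmb5*, *Psmc6* and *Psmd7* peak with tunicamycin (group means 81.5, 137 and 119 CPM), *Psmb6* and *Psmd8* peak in Oligo (165 and 379 CPM), and *Psma4* peaks in M2 (130 CPM).

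Outside the mature particle, the 3 base chaperones were called in few comparisons with inhibitors, and *Psmc3ip* fell with every inhibitor. In M2 against naive cells, 1 of the 3 chaperones rose (30.1% of all genes), with values from -0.03 to 0.36 over the 3. Against M2, *Psmd9* rose with tunicamycin (0.18, SE 0.08, adjusted *P* = 0.0322), *Psmd10* rose with Sal003 (0.18, SE 0.07, adjusted *P* = 0.0443), and *Psmd5* was called with no inhibitor. *Psmc3ip*, the member that is not a subunit, was at 2.34, 1.92, 1.84 and 1.40 CPM in M2 and at 0.873, 1.14, 1.25 and 0.917 CPM with tunicamycin. It fell with tunicamycin (-0.84, SE 0.27), Sal003 (-0.97, SE 0.27), in Oligo (-0.74, SE 0.26) and in Oli_ISR (-0.91, SE 0.27). These falls are against M2, where it had risen from naive cells (0.84). Between tunicamycin and naive cells it was not called (-0.0055). It was the only member to fall with Sal003 and accounted for 1 of the falls in each of the other 3. *Psmc3ip* had 10 to 42 reads per library, and 38.1% of its exon bases lie opposite exons of *Mlx*. Without mouse 1, 0 members fell with Sal003, and 0 fell at least 1.5-fold with tunicamycin or in Oligo. Without mouse 2, 0 fell at least 1.5-fold in Oligo.

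The tunicamycin and Oligo libraries were set against each other directly. By the sample titles, the Oligo libraries also received ISRIB, and by the library names they did not. In this comparison 9 members were higher with tunicamycin and 3 lower, where 31.4% and 32.1% of all genes were, and the median log2 fold change was 0.06 against -0.02. The differences in *Psmc1* (0.50, SE 0.07, adjusted *P* = 4.54e-07), *Psmd7* (0.41, SE 0.05, adjusted *P* = 1.83e-07) and *Psma6* (0.40, SE 0.06, adjusted *P* = 3.27e-06) were the largest in favour of tunicamycin. *Psmb5* was also higher (0.32, SE 0.10, adjusted *P* = 0.00707). *Psmd8* (-0.79, SE 0.05, adjusted *P* = 1.84e-12), *Psmb6* (-0.52, SE 0.08, adjusted *P* = 1.58e-06) and *Psma4* (-0.17, SE 0.06, adjusted *P* = 0.0122) were lower. The naive library of mouse 2 enters this comparison through the filter, the scaling and the shared estimate of the spread. Without it, 20 members were higher and 3 lower, with a median of 0.0961 against 0.0117 for all genes.

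The Oligo and Oli_ISR libraries differed in few members. In Oligo, 6 members were higher and 0 lower, where 19.9% and 21.3% of all genes were, with a median of 0.06 against -0.00 and 0 members past 1.5-fold (5.05% and 7.12% of all genes were). The 6 were *Psmb5* (0.32, SE 0.10), *Psmc6* (0.24, SE 0.04), *Psmb3* (0.22, SE 0.08), *Psmd14* (0.19, SE 0.05), *Psmd11* (0.18, SE 0.04) and *Psmd7* (0.15, SE 0.05), and each was higher in Oligo in 4 of 4 mice.  *Psmd8* (0.11, SE 0.05, adjusted *P* = 0.091) and *Psmb6* (0.07, SE 0.08, adjusted *P* = 0.515) were not called. The number of higher members was 3 without mouse 4 or mouse 5, 11 without mouse 2, and 12 without the naive library of mouse 2, in which case 2 were lower.

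Between naive and tunicamycin-treated cells, which differ in cytokines and inhibitor at once, 31 members were higher and 0 lower (37.1% and 40.5% of all genes), with a median of 0.31 against -0.05. Of these, 8 were higher at least 1.5-fold (20.6% of all genes). All 17 subunits of the 19S particle and 12 of 15 of the core were higher. *Psmb5* (1.32, SE 0.10), *Psma8* (1.19, SE 0.20), *Psmd14* (1.11, SE 0.05) and *Psmc6* (0.91, SE 0.04) led, and *Psma7* stood at -0.08 (SE 0.08, adjusted *P* = 0.322). Without the naive library of mouse 2, 34 members were higher and *Psma7* was among them, at 0.10.

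Genes that act on the proteasome without meeting the rule were described from a list drawn up by role, of which 36 genes were tested. In M2 against naive cells, 16 of them rose and 7 fell (30.1% and 30.4% of all genes). Against M2, 22 rose and 8 fell with tunicamycin (38.7% and 37.6%), and 18 rose and 2 fell with Sal003 (25.9% and 24.6%). In Oligo 22 rose and 4 fell (34.0% and 32.2%), and in Oli_ISR 20 rose and 4 fell (27.9% and 26.4%). *Nfe2l1*, which encodes NRF1, was at 227, 221, 249 and 228 CPM in M2 and at 1705, 1749, 1761 and 1727 CPM with tunicamycin. It was at 764, 774, 814 and 793 CPM in Oligo, at 524, 468, 498 and 466 CPM in Oli_ISR and at 294, 283, 285 and 287 CPM with Sal003. No inhibitor group overlapped with M2 or with another of these groups, and the log2 fold changes were 2.91, 1.77, 1.08 and 0.31 (SE 0.05 each, adjusted *P* = 2.66e-24, 1.08e-19, 3.31e-15 and 7.05e-06). Ordered by mean level, the 6 groups stood in the order naive, M2, Sal003, Oli_ISR, Oligo and tunicamycin for *Nfe2l1*. The same order held for 4 of the 36 members, *Psma8*, *Psmb5*, *Psmc6* and *Psmd11*. Of these, *Psmb5* and *Psma8* were not called between Sal003 and M2, and *Psma8* had only 13 to 48 reads per library. How many of all genes stood in this order was not counted, and a link to *Nfe2l1* was not tested. Of the genes that process NRF1 at the ER, the ubiquitin ligase *Syvn1* rose only with tunicamycin (2.24, SE 0.04) among the 4 comparisons and fell in Oligo (-0.19, SE 0.04) and Oli_ISR (-0.25, SE 0.04). The ATPase *Vcp*, which extracts proteins from the ER, rose with tunicamycin (1.01, SE 0.05) and fell in Oligo (-0.39, SE 0.05) and Oli_ISR (-0.37). The deglycosylase *Ngly1* rose with tunicamycin (0.63, SE 0.05), and the peptidase *Ddi2* was not called there (-0.10, SE 0.05). Of the 100-base stretches of *Vcp*, 43.7% also occur in transcripts of other genes, and exon bases lie opposite another gene for *Psme1* (39.6%), *Usp14* (27.2%), *Psmb9* (19.6%) and *Pomp* (18.8%).

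Genes of 20S assembly were split. *Psmg2*, a chaperone that assembles the alpha ring, rose with tunicamycin (1.13, SE 0.11, adjusted *P* = 8.24e-10) and in Oligo (0.88, SE 0.11, adjusted *P* = 1.31e-07). *Pomp*, which guides the assembly of the beta ring, was at 117, 123, 114 and 114 CPM in M2, at 78.4, 76.4, 70.6 and 79.3 CPM with tunicamycin and at 77.1, 80.1, 81.4 and 77.0 CPM in Oligo. It fell in both (-0.62, SE 0.13, adjusted *P* = 0.00014, and -0.57, SE 0.13, adjusted *P* = 0.000434). In Oli_ISR, *Pomp* was not called against M2 (-0.15), and *Psmg2* rose by 0.29. Between the oligomycin groups, Oligo was lower in *Pomp* (-0.41) and higher in *Psmg2* (0.59), and both were called. *Adrm1*, a ubiquitin receptor of the 19S base, rose with tunicamycin (0.31, SE 0.07) and in Oligo (0.37, SE 0.07), although 66.4% of its 100-base stretches also occur in *Adrm1b*. *Usp14*, a deubiquitinase bound to the proteasome, rose in M2 against naive cells (0.62, SE 0.04).

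The inducible catalytic subunits of the immunoproteasome separated tunicamycin from the other inhibitors. *Psmb8*, *Psmb9* and *Psmb10* take the places of *Psmb5*, *Psmb6* and *Psmb7*. *Psmb9* was at 59.3, 58.6, 56.1 and 58.8 CPM in M2, at 27.4, 23.8, 24.8 and 24.3 CPM with tunicamycin and at 90.9, 93.4, 91.0 and 90.3 CPM in Oligo. These groups did not overlap (-1.22, SE 0.12, adjusted *P* = 1.12e-09, and 0.65, SE 0.11, adjusted *P* = 1.28e-05). With tunicamycin all 3 genes fell, *Psmb8* by 0.54 and *Psmb10* by 1.25 on the log2 scale. With Sal003 all 3 rose (0.87, 0.77 and 0.62, SE 0.11 each). *Psmb8* and *Psmb9* rose in Oligo and all 3 in Oli_ISR. *Psmb10* stood at 0.23 in Oligo (SE 0.11, adjusted *P* = 0.0579, or 0.0372 with a block for mouse). In direct comparison with Oligo, tunicamycin libraries were lower in *Psmb8* (-1.23, SE 0.11), *Psmb9* (-1.87, SE 0.12) and *Psmb10* (-1.48, SE 0.11).

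The inducible subunit was also set against its constitutive counterpart within each library. The log2 ratio of *Psmb8* to *Psmb5* CPM was 1.94 ± 0.06 in M2 and 0.46 ± 0.06 with tunicamycin (SD, n = 4), and it lay between 2.22 and 2.83 with Sal003. The ratio of *Psmb9* to *Psmb6* was -1.02 ± 0.02 in M2 and -2.19 ± 0.07 with tunicamycin. That of *Psmb10* to *Psmb7* was 1.22 ± 0.05 and -0.17 ± 0.11. All tunicamycin libraries were below all libraries of the other groups in each of the 3 ratios. In Oligo, the ratios of *Psmb8* to *Psmb5* (1.89 to 2.06) and of *Psmb10* to *Psmb7* (1.21 to 1.32) overlapped those of M2 (1.88 to 2.02 and 1.16 to 1.28). The activator *Psme1*, a subunit of the interferon-inducible PA28 cap, followed the inducible subunits, with -1.07 for tunicamycin (SE 0.10, adjusted *P* = 2.95e-10) and 1.01 for Sal003 (SE 0.09, adjusted *P* = 1.9e-09). Its partner *Psme2* rose with both (0.39, SE 0.09, and 1.14, SE 0.09), but 44.5% of its 100-base stretches also occur in *Psme2b*, and the counts cannot be told apart there.

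**Figure D5:**
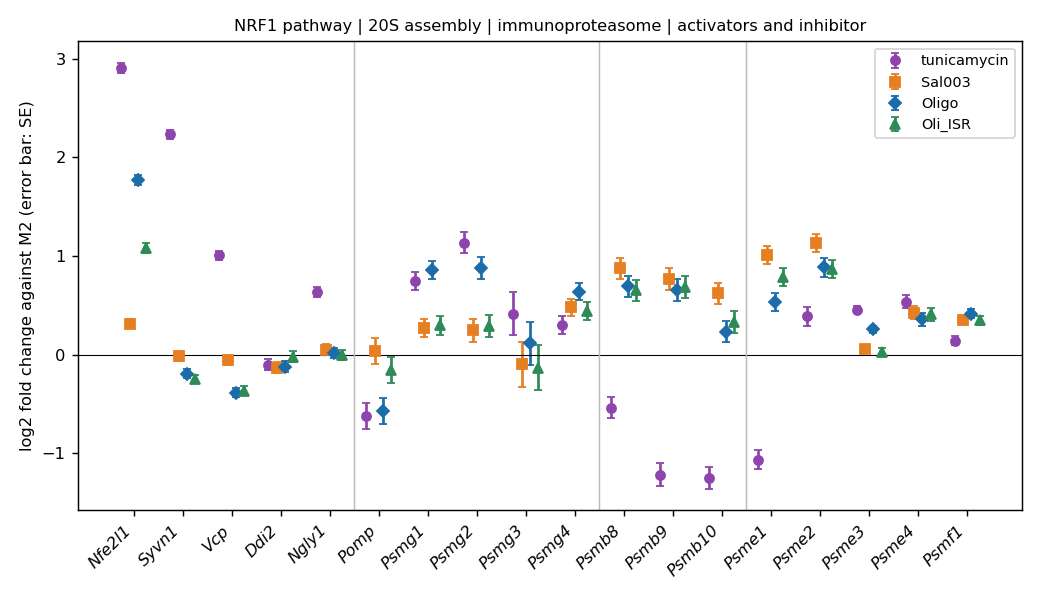
Log2 fold change against M2 (vertical axis, error bars SE, 4 libraries per group) of genes around the proteasome (horizontal axis) with tunicamycin, Sal003, Oligo and Oli_ISR. *Nfe2l1* is highest with tunicamycin at 2.91, and *Psmb8*, *Psmb9*, *Psmb10* and *Psme1* are below 0 with tunicamycin only, at -0.54, -1.22, -1.25 and -1.07.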

How the data were processed

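The mRNA libraries of the 24 samples were sequenced by the authors, who trimmed reads with cutadapt 1.8 and removed ribosomal and low-complexity reads. Alignment to GRCm39 used STAR 2.7, and HTSeq 0.9.1 gave the reads at each gene. The unit used is these deposited raw counts. The 5 totals lines of the table, which name no gene, entered neither library sizes nor tests and held 12.7 to 15.2% of reads. The deposited TPM values (RSEM 1.2.31) were not used, because their header has 28 names for 25 cells per line.

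Counts were scaled by TMM and filtered by filterByExpr in edgeR 4.0.16 (R 4.3.3), which left 13679 genes. One coefficient per group was fitted over all 24 libraries, and 8 comparisons were tested with edgeR's quasi-likelihood test. All adjusted *P* values are Benjamini-Hochberg values over all genes tested, with a threshold of 0.05. Groups came from the sample labels. Levels are CPM on TMM-scaled library sizes, and log2 CPM used a prior count of 2. The code was tested on simulated data. Mice pair the libraries, since each mouse gave 1 library per group: deviations from group means correlated with a median r of 0.24 for libraries of the same mouse (56 of 60 pairs over 0.1) and -0.05 for different mice (7 of 180 pairs).

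Named members were the catalytic subunits, the 2 highest and 2 lowest called members of each comparison, the extremes of each role with tunicamycin, members called against the majority and *Psmc3ip*. Outside the rule these were the inducible subunits, *Nfe2l1*, *Pomp*, *Adrm1*, *Atf4* and, in each comparison, the 2 pathway genes with the largest called change and a mean of at least 50 counts. One gene that this rule names is not reported here. Other genes named (*Psma6*, *Psmd14*, *Psmc5*, *Psma3*, *Psmd5*, *Ddi2*, *Vcp*, *Ngly1*) were chosen after their values were seen. The members and lists were chosen with earlier results of these data known. Gene positions are from the GRCm39 annotation, which held 56323 of 56884 identifiers, and promoters from RefSeq (GRCm38.p6). Alternatives were other scalings (RLE and upper-quartile), DESeq2 1.42.0, other filters, fits of the compared groups alone, a block for mouse, and leaving out each mouse. Leaving out the naive library of mouse 2 and correcting for transcript length were chosen after seeing the data.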

Additional observations from a re-analysis of the deposited data

Results flagged for a closer look

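Of 210 groups of 4 libraries examined (the mean level and 34 named genes in 6 groups), 22 held 1 library whose gap to its nearest neighbour took up more of the group's range than Dixon's 95% limit allows, where chance alone marks about 1 in 20. The naive library of mouse 2 accounted for 13. There, the mean level of the members was 6.12 log2 CPM. *Psma7* was at 128 CPM, *Psmb3* at 72.9, *Psmb5* at 46.3, *Psmb7* at 80.3, *Psmc1* at 156, *Psmc3* at 142, *Psmc3ip* at 1.59, *Psmd7* at 85.8, *Psmd8* at 203, *Psmd9* at 28.5 and *Psmd10* at 33.1 CPM. The assembly factor *Pomp* was at 155 CPM. Each of these values was the highest of the naive group.

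The other libraries that stood apart were scattered over groups and mice. In M2 these were *Psmb10* at 154 CPM in mouse 4, *Psmd12* at 72.2 CPM in mouse 1 and *Psme2* at 98.0 CPM in mouse 5. With tunicamycin, *Psmd7* was at 124 CPM in mouse 2. With Sal003, *Psmb7* was at 89.0 CPM in mouse 5 and *Psmd10* at 27.1 CPM in mouse 4. In Oligo, *Atf4* was at 699 CPM in mouse 4, *Psmc1* at 121 CPM in mouse 1 and *Psmc3* at 130.3 CPM in mouse 2.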

How the results depend on the processing

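The block for mouse changed none of the 40 summary values beyond the limits used (counts within 1.5 times) and changed 5 calls of named genes: *Psmg2* in M2 against naive cells was lost (adjusted *P* = 0.0526), and *Psmb7* with tunicamycin (0.0393), *Psmb10* in Oligo (0.0372), *Adrm1* in Oli_ISR (0.0491) and *Psme2* between tunicamycin and naive cells (0.0353) were gained. It changed no other call. Of 3808 values of named genes under the alternatives, 3529 kept their direction and side of the threshold, 159 lost the call, 119 gained it and 1 reversed: *Psma7* between tunicamycin and naive cells went from -0.08 to 0.0962 without the naive library of mouse 2, within a range of -0.1316 to 0.0962 over all libraries left out. Upper-quartile scaling moved the median of all genes in that comparison to -0.12. The cause of the shifts below was not tested.

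Median log2 fold changes of the members against M2 were, with tunicamycin, 0.12 with DESeq2, 0.12 with RLE, 0.0891 with upper-quartile scaling, 0.18 without a filter, 0.0947 with at least 10 counts in every library, 0.12 in the compared groups alone, 0.13 with the length correction and 0.13 with the replicate block and length correction. Leaving out libraries gave 0.13 to 0.18. In Oligo they were 0.0934 with DESeq2, 0.0916 with RLE, 0.0949 with the 10-count filter, 0.0913 with the length correction, 0.0911 with the block added, and 0.10 to 0.13 with libraries left out. In Oli_ISR they were 0.0533 with DESeq2, 0.0508 with RLE, 0.0499 with the 10-count filter, 0.0468 with the length correction, 0.0475 with the block added, 0.0238 with upper-quartile scaling, and 0.0378 to 0.0789 with libraries left out. Between tunicamycin and Oligo they were 0.022 with upper-quartile scaling, 0.10 without a filter, and 0.0644 to 0.10 with libraries left out.

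In the compared groups alone, 14 members rose in M2 against naive cells, 3 fell with Sal003, 7 fell in Oligo and 5 in Oli_ISR, 12 were higher and 2 lower in Oligo than in Oli_ISR, and 17 were higher and 5 lower with tunicamycin than in Oligo. With upper-quartile scaling, 11 rose with Sal003 and 5 fell in Oli_ISR. DESeq2 put 1 member lower in Oligo than in Oli_ISR. With the length correction 4 fell in Oli_ISR and 4 were lower in Oligo than in Oli_ISR. With the block and length correction 2 fell with Sal003, 5 fell in Oli_ISR, and 10 were higher and 4 lower in Oligo than in Oli_ISR. The single rise of at least 1.5-fold with Sal003 (*Psmd8*) became 0 with DESeq2, RLE, upper-quartile scaling, the 10-count filter, the compared groups alone and the length correction with or without the block.

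With libraries left out, 14 to 32 members rose in M2, 2 to 6 of them at least 1.5-fold. With Sal003, 9 to 24 rose (0 to 1 at least 1.5-fold) and 0 to 1 fell (0 to 1 at least 1.5-fold). In Oligo, 2 to 6 fell (0 to 1 at least 1.5-fold), and with tunicamycin 0 to 1 fell at least 1.5-fold. In Oli_ISR 5 to 10 rose and 1 to 6 fell. Between Oligo and Oli_ISR 3 to 12 were higher and 0 to 2 lower, and between tunicamycin and Oligo 8 to 20 were higher.

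Without *Psmc3ip*, *Psmd5*, *Psmd9* and *Psmd10* the mean level was 6.12 in naive cells, 6.34 in M2, 6.56 with tunicamycin, 6.51 with Sal003, 6.51 in Oligo and 6.45 in Oli_ISR. Over all members with upper-quartile scaling, the mean level was 6.23 with tunicamycin and 6.22 in Oligo. Depth limits *Psmc3ip* (10 to 42 reads per library) and *Psma8* (13 to 48) most.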
